A study of Homo sapiens with 12 samples.

Results

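The 41 genes described here belong to the lysosome and to autophagy. They were named as a list of symbols and looked up among the 21439 genes measured by RNA-seq in DU145 cells. All 41 had a row in the count table, and all 41 were among the 17823 genes that passed the filter on low counts. The list holds 4 lysosomal membrane proteins, 11 hydrolases and other lumenal proteins, 6 proteins of the lysosomal proton pump and 2 transcription factors. It also holds 4 genes of autophagy initiation, 5 of the ATG conjugation systems, 4 ATG8 proteins, 2 cargo receptors, 2 receptors for autophagy of the endoplasmic reticulum (ER), and SEC24B-AS1. SEC24B-AS1 is an antisense RNA and not a known lysosomal gene.

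DU145 is an established human prostate cancer line that grows without androgen. Every culture received thapsigargin, which empties calcium from the ER and so stresses it, at 30 nM for 3 h before harvest, so no group shows unstressed cells. The siATF6 libraries came from cells transfected with siRNA against ATF6 and grown for 24 h, and the siCtrl libraries from cells given a non-targeting control siRNA for the same time. The Ceapin libraries came from cells treated with Ceapin-A7 at 10 µM for 12 h, and the DMSO libraries from cells given the solvent. Each group has 3 libraries, and nothing states that they came from separate cultures, so p-values measure only the spread between these libraries. A label field on transfection names the ATF6 siRNA for the Ceapin libraries and the control siRNA for the DMSO libraries, against their titles and the treatment text, which were followed.

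ATF6 mRNA averaged 25.8 ± 0.81 CPM (counts scaled to a library of fixed size) in siATF6 libraries and 125 ± 1.08 CPM in siCtrl libraries (SD, n = 3 each), a 4.84-fold lower level. It averaged 72.9 ± 1.91 CPM in Ceapin libraries and 71.4 ± 1.99 CPM in DMSO libraries (SD, n = 3 each; log2 fold change 0.03, edgeR adjusted p = 0.748), which do not carry the drop of the siATF6 libraries. Ceapin-A7 is known to hold the ATF6 protein in the ER without lowering its mRNA. HSPA5, an ER chaperone induced through ATF6, averaged 1122 CPM in siATF6 and 1386 CPM in siCtrl libraries, and 939 CPM in Ceapin and 1466 CPM in DMSO libraries. Library totals ran between 17760878 and 19202632 counts. All 5 epithelial markers looked up (KRT8, KRT18, KRT19, EPCAM, CDH1) were present, and the 3 endothelial markers summed to at most 2.70 CPM in any library.

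The lysosome is the acid compartment in which cells degrade proteins, lipids and sugars. Its membrane proteins protect and connect it, its proton pump keeps it acid, and its hydrolases do the digestion. Autophagy delivers cytoplasm, or pieces of the ER, to the lysosome inside vesicles whose membranes carry ATG8 proteins such as LC3. Many of these genes share a DNA element called CLEAR, which is bound by the transcription factors TFEB and TFE3. ATF6 is an ER membrane protein that is cut under ER stress to release a transcription factor for chaperone genes. DU145 cells are known to lack normal ATG5 protein through a splicing defect, which blocks the usual attachment of LC3 to membranes. Gene-level counts cannot show that defect, and ATG5 itself was measured at 9.23 to 11.5 CPM in all 12 libraries.

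The promoters were searched first, since CLEAR elements and ATF6 sites are the sequences through which these genes are known, or might be expected, to be controlled. RefSeq promoters (GRCh38.p14, 250 bases before to 50 bases after the gene start) were held for 32 of the 41 genes. The palindromic CLEAR core TCACGTGA stood in the promoters of 6 of these 32 genes, namely LAMP1, MCOLN1, CTSA, GAA, ATP6V0D1 and ATG3. Some genes have more than 1 promoter, and the 32 genes had 41. The core stood in 6 of these 41 promoters, against 0.98% of all 35116 promoters. The shorter E-box CACGTG, which lies inside the CLEAR core, was found in the same 6 genes and in CTSD. That made 7 of the 41 promoters, against 7.26% of all promoters. The ATF6 site TGACGTGG, searched on both strands, was in none of the members' promoters and in 0.729% of all. The ER stress element, CCAAT and CCACG 9 bases apart on either strand, was in none of them and in 0.0769% of all.

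The promoters of LAMP1, MCOLN1, ATP6V0D1 and ATG3 are shown because they carry the CLEAR core in genes of 3 different roles, membrane, pump and conjugation. They lie at chr13:113296989-113297288 on the plus strand for LAMP1, chr19:7522374-7522673 on the plus strand for MCOLN1, chr16:67481108-67481407 on the minus strand for ATP6V0D1 and chr3:112561913-112562212 on the minus strand for ATG3. Each is written 5′ to 3′ on the strand of its gene, and capitals mark every E-box, lengthened to the CLEAR core where the flanking bases match.
LAMP1: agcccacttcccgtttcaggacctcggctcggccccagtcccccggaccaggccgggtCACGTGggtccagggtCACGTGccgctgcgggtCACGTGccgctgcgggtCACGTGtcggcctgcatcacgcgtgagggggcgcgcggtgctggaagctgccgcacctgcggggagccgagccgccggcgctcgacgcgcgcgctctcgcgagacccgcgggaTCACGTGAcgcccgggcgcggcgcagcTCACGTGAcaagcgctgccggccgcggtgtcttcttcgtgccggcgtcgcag
MCOLN1: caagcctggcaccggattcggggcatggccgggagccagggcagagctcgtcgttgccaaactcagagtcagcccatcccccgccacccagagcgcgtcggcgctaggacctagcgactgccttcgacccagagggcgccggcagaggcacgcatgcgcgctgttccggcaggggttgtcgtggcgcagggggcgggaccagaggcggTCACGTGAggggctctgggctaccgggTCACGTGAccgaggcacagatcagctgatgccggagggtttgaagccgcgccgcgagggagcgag
ATP6V0D1: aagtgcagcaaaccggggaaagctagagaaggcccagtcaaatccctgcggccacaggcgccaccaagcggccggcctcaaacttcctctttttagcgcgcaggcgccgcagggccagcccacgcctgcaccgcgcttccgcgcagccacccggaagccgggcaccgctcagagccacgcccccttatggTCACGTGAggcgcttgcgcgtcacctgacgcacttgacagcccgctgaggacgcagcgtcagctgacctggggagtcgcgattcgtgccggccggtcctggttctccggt
ATG3: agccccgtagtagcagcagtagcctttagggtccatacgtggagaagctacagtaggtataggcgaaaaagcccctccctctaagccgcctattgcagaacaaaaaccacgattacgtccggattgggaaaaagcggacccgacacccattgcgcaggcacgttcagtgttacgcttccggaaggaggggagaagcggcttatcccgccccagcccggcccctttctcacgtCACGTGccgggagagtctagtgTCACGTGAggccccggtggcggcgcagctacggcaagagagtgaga
LAMP1 held 6 E-boxes, 2 of them CLEAR cores, and was the only 1 of the 35116 promoters with that many. MCOLN1 held 2, both CLEAR cores. ATP6V0D1 held 1, a CLEAR core, and ATG3 held 2, of which 1 was a CLEAR core. At least 2 E-boxes were found in 0.664% of all promoters. A match of letters is a description and shows no binding in these cells.

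**Figure D1:**
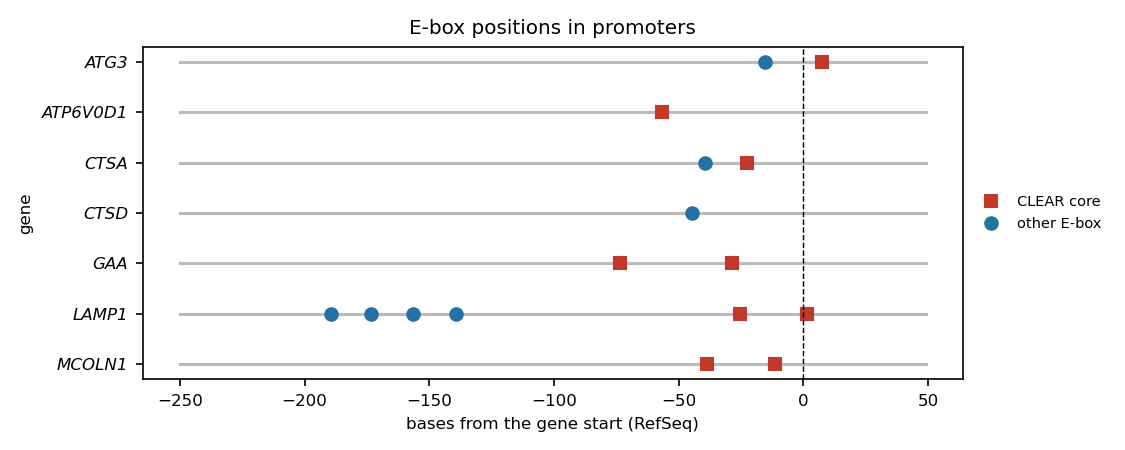
Position of each E-box (CACGTG) in the promoters of the 7 members that hold one, as distance in bases from the gene start, with CLEAR cores (TCACGTGA) marked apart. LAMP1 carries 6 E-boxes over the stretch between -192 and -1, and the other genes carry 1 or 2 each.

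Loss of ATF6 by siRNA was accompanied by small changes in both directions across the list. In siATF6 against siCtrl, 12 of the 41 genes were higher and 10 lower at an adjusted p under 0.05 (edgeR quasi-likelihood test, adjusted over all 17823 genes), and 19 did not pass. Among all genes tested 31.4% passed, 16.1% higher and 15.3% lower. Where groups are said below not to overlap, the share of all genes that do the same was not counted. Members without a call also lay apart, among them CTSA, GAA, NPC2 and TFEB in the siRNA groups. In the compound groups these included GAA, ATG7 and WIPI2. The median size of the log2 difference was 0.12 over the members and 0.15 over all genes tested, and the members ranged between -0.65 (RETREG1) and 0.41 (CTSB). Members and all genes were not matched for expression level in these shares and medians, here or below. The summed level of the 41 genes was 9078 to 9152 CPM in siATF6 and 8754 to 8908 CPM in siCtrl libraries. The 5 epithelial markers summed to 445 to 473 CPM in siATF6 and 504 to 525 CPM in siCtrl libraries, and the mitochondrial share of counts was 7.14% to 7.49% in siATF6 and 6.65% to 7.13% in siCtrl libraries. Neither overlaps between the groups, and their part in the gene levels was not tested. In bulk RNA, fewer cells of a type and less RNA per cell cannot be told apart.

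**Figure D2:**
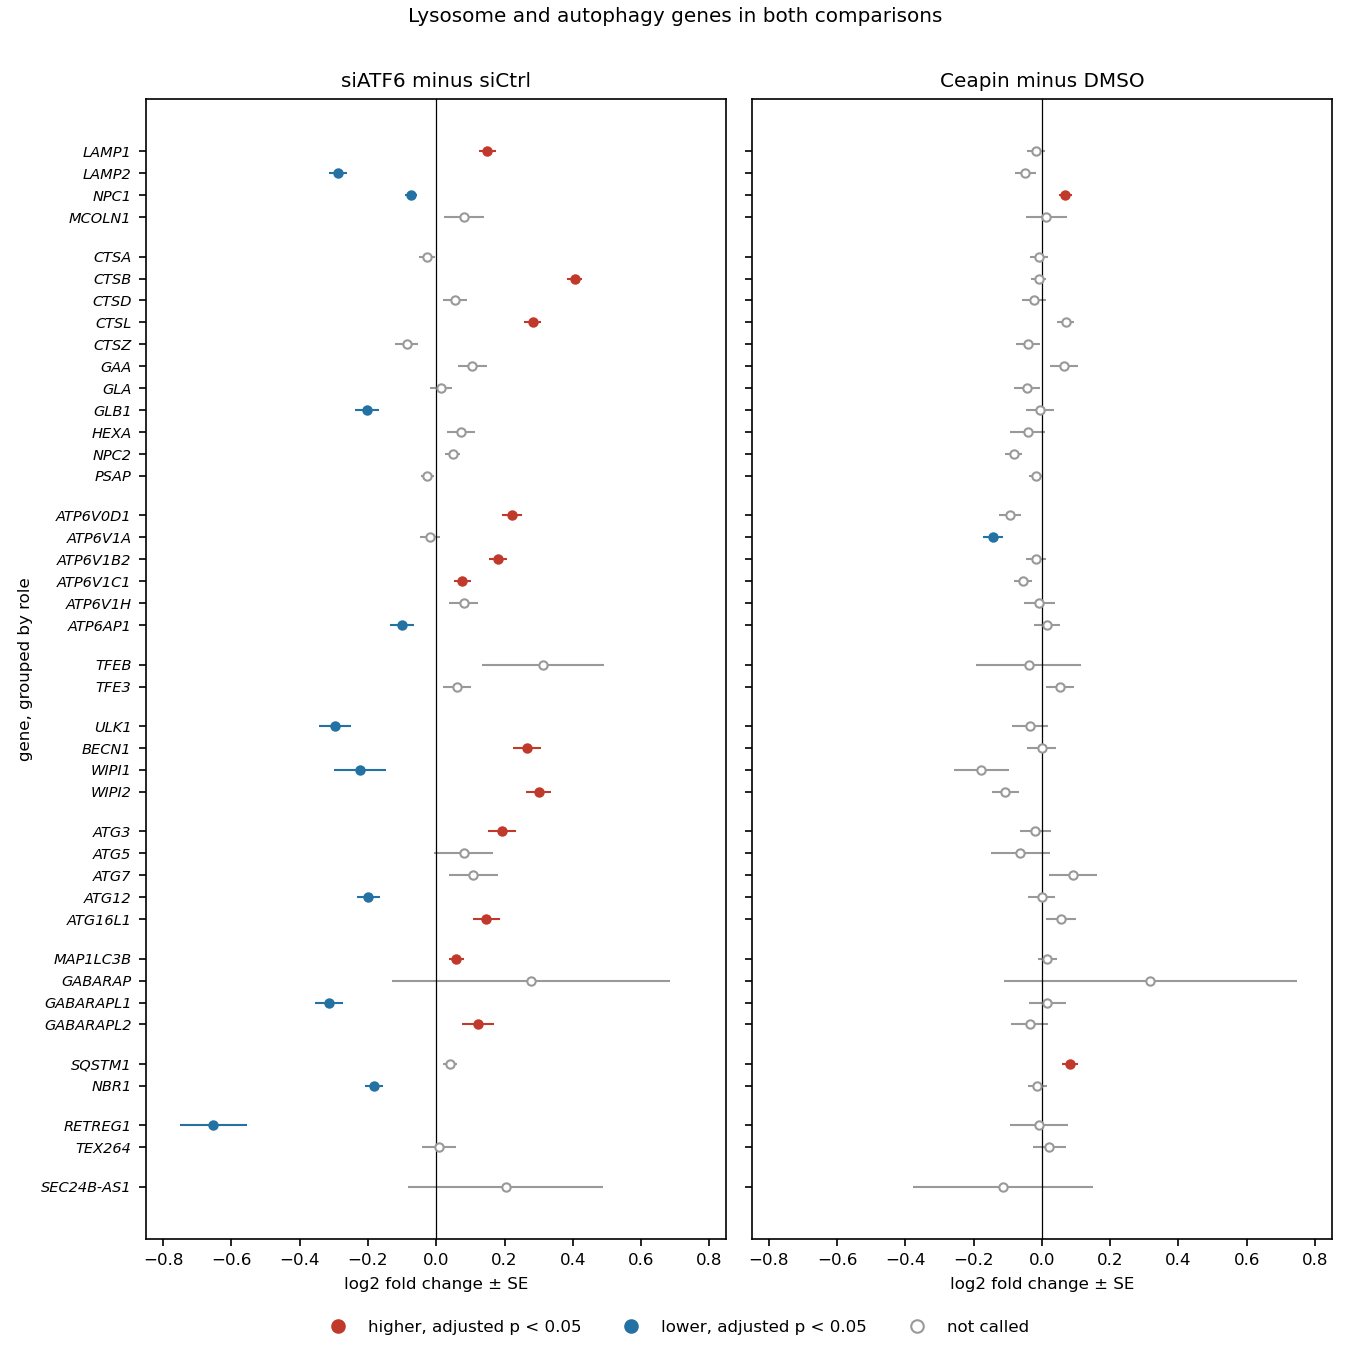
Log2 fold change of each of the 41 genes (x axis), by role, for siATF6 over siCtrl and for Ceapin over DMSO, with bars of 1 standard error and filled points where the adjusted p is under 0.05. The 22 called siATF6 effects lie between -0.65 and 0.41, and 3 Ceapin effects are called, at -0.14, 0.07 and 0.08.

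Of the lysosomal membrane proteins, LAMP2 and NPC1 fell and LAMP1 rose in siATF6 libraries. LAMP2, a heavily glycosylated membrane protein also needed for chaperone-mediated autophagy, had 183, 173 and 184 CPM in siATF6 libraries, against 221, 217 and 220 CPM in siCtrl libraries. The 3 siATF6 libraries all lay below the 3 siCtrl libraries. Its log2 fold change was -0.29 (SE 0.0268, edgeR adjusted p = 1.75e-10). LAMP1, its close relative, had 299, 296 and 297 CPM in siATF6 libraries, against 273, 264 and 266 CPM in siCtrl libraries, again with no overlap. It rose by 0.15 on the log2 scale (SE 0.0236, edgeR adjusted p = 5.04e-06), and the 2 LAMP genes moved in opposite directions. NPC1 exports cholesterol from lysosomes. It had 1238, 1218 and 1242 CPM in siATF6 libraries, against 1292, 1304 and 1298 CPM in siCtrl libraries, a small drop with no overlap (log2 fold change -0.07, SE 0.0183, edgeR adjusted p = 1.62e-03). MCOLN1, a calcium channel, did not pass, at 27.6 ± 1.83 CPM in siATF6 and 26.1 ± 0.81 CPM in siCtrl libraries (SD, n = 3 each), although its promoter holds 2 CLEAR cores.

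Among the hydrolases and lumenal proteins, the cysteine proteases CTSB and CTSL rose and the galactosidase GLB1 fell. CTSB had 932, 950.3 and 951 CPM in siATF6 libraries, against 732, 713 and 694 CPM in siCtrl libraries. All siATF6 libraries were about 1.32-fold above the siCtrl level, the largest increase among the 41 (log2 fold change 0.41, SE 0.0211, edgeR adjusted p = 1.18e-16). CTSL had 432, 448 and 435 CPM in siATF6 libraries, against 372, 350.0 and 359 CPM in siCtrl libraries. The groups did not overlap, and the log2 fold change was 0.28 (SE 0.0261, edgeR adjusted p = 1.52e-10). GLB1, the beta-galactosidase of the lysosome, had 82.4, 81.4 and 82.7 CPM in siATF6 libraries, against 92.6, 98.7 and 92.0 CPM in siCtrl libraries. All 3 siATF6 libraries were lower (log2 fold change -0.20, SE 0.0354, edgeR adjusted p = 2.66e-05). No call was made for the remaining 8. They are the protease CTSD, the carboxypeptidases CTSA and CTSZ, the glycosidases GAA, GLA and HEXA, the cholesterol carrier NPC2, and PSAP, the precursor of the saposins. The closest of them to the threshold were CTSZ at -0.09 (edgeR adjusted p = 0.0501) and GAA at 0.11 (edgeR adjusted p = 0.0563). Exons of CTSD share 41.7% of their bases with an unnamed gene on the same strand, which had a mean count of 5.8.

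The proton pump is built of a membrane sector (V0), a catalytic sector (V1) and accessory proteins. ATP6V0D1, ATP6V1B2 and ATP6V1C1 rose, and ATP6AP1, an accessory protein, fell by 0.10 on the log2 scale (SE 0.0352, edgeR adjusted p = 0.0296). The ATP6AP1 call was lost with DESeq2 and without siATF6 replicate 1, siCtrl replicate 1 or siCtrl replicate 3, and that of ATP6V1C1 without siATF6 replicate 1, siATF6 replicate 2 or siCtrl replicate 2. ATP6V0D1, which joins the sectors, had 153, 150.1 and 158 CPM in siATF6 libraries, against 139, 129 and 129 CPM in siCtrl libraries. Every siATF6 library was higher (log2 fold change 0.22, SE 0.0293, edgeR adjusted p = 2.56e-07). ATP6V1B2, a V1 subunit, had 227, 224 and 223 CPM in siATF6 libraries, against 199, 197 and 199 CPM in siCtrl libraries. It too did not overlap between groups (log2 fold change 0.18, SE 0.0264, edgeR adjusted p = 1.33e-06). ATP6V1C1 had 248, 242 and 232 CPM in siATF6 libraries, against 231, 227 and 228 CPM in siCtrl libraries. Its 3 siATF6 libraries lay just above (log2 fold change 0.08, SE 0.0249, edgeR adjusted p = 0.0173). ATP6V1A and ATP6V1H, also of V1, did not pass. ATP6V1A, the catalytic subunit, had 99.4, 97.0 and 98.6 CPM in siATF6 libraries, against 102, 99.02 and 98.3 CPM in siCtrl libraries, which overlap.

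Neither transcription factor of the CLEAR network passed. TFEB was rare, at 2.12, 2.21 and 2.42 CPM in siATF6 libraries, against 1.78, 1.86 and 1.78 CPM in siCtrl libraries. These values do not overlap, but at this depth its standard error was 0.178 for a log2 fold change of 0.31 (edgeR adjusted p = 0.222). TFE3 averaged 62.3 ± 1.26 CPM in siATF6 and 59.6 ± 4.11 CPM in siCtrl libraries (SD, n = 3 each). Of the 6 genes with a CLEAR core, LAMP1, ATP6V0D1 and ATG3 were higher, none was lower, and MCOLN1, CTSA and GAA did not pass. Of all genes tested 16.1% were higher, as were 12 of the 41 members. None of these 6 was called with Ceapin-A7. Some called members had no promoter to search, among them CTSB and ATP6V1B2, which were higher, and LAMP2, which was lower. TFEB and TFE3 are controlled mainly by where the protein is in the cell, which RNA counts do not measure.

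All 4 initiation genes passed, 2 in each direction, against 16.1% of all genes tested higher and 15.3% lower. ULK1, the kinase that starts autophagy, had 29.4, 30.2 and 31.2 CPM in siATF6 libraries, against 36.4, 37.6 and 37.5 CPM in siCtrl libraries. All siATF6 libraries were lower (log2 fold change -0.30, SE 0.0471, edgeR adjusted p = 5.46e-06). BECN1, a subunit of the lipid kinase complex that follows, had 53.3, 56.5 and 52.8 CPM in siATF6 libraries, against 47.0, 43.8 and 44.5 CPM in siCtrl libraries. It was higher in all 3 (log2 fold change 0.27, SE 0.0420, edgeR adjusted p = 5.21e-06). WIPI1 and WIPI2 bind the lipid made by that complex, and they moved in opposite directions. WIPI2, which recruits ATG16L1, had 79.6, 80.4 and 79.9 CPM in siATF6 libraries, against 69.4, 63.8 and 61.6 CPM in siCtrl libraries (log2 fold change 0.30, SE 0.0375, edgeR adjusted p = 7.90e-08). WIPI1 had 17.7, 18.5 and 16.3 CPM in siATF6 libraries, against 19.4, 19.1 and 22.8 CPM in siCtrl libraries (log2 fold change -0.22, SE 0.0755, edgeR adjusted p = 0.0217). Neither gene overlapped between groups. WIPI1 lost its call without siATF6 replicate 3, without siCtrl replicate 3 and with DESeq2. The exons of WIPI1 share 24.3% of their bases with the opposite-strand gene ARSG, and those of BECN1 share 12.4% with CNTD1 and 4.7% with PSME3. PSME3 had a mean count of 6168 and was itself higher in siATF6 (log2 fold change 0.14, edgeR adjusted p = 4.97e-06). Its part in the BECN1 value was not tested; the library kit marks strand, but no source used here states the strand setting of the counting.

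In the conjugation systems, which attach ATG8 proteins to membrane lipid, ATG3 and ATG16L1 rose and ATG12 fell. ATG3, the enzyme that transfers ATG8 proteins, had 55.8, 58.0 and 58.9 CPM in siATF6 libraries, against 50.2, 48.0 and 53.0 CPM in siCtrl libraries. ATG16L1, the scaffold, had 52.7, 54.6 and 51.0 CPM in siATF6 libraries, against 48.0, 46.7 and 48.2 CPM in siCtrl libraries. ATG12, a ubiquitin-like protein joined to ATG5, had 85.5, 78.2 and 80.7 CPM in siATF6 libraries, against 93.9, 94.1 and 92.5 CPM in siCtrl libraries. None of the 3 overlapped between groups. The log2 fold changes were 0.19 for ATG3 (SE 0.0415, edgeR adjusted p = 3.76e-04), 0.15 for ATG16L1 (SE 0.0392, edgeR adjusted p = 3.73e-03) and -0.20 for ATG12 (SE 0.0334, edgeR adjusted p = 1.38e-05). Exons of ATG12 share 4.3% of their bases with the opposite-strand gene AP3S1, itself lower in siATF6 (log2 fold change -0.31, edgeR adjusted p = 4.15e-08). Those of ATG3 share 2.5% with SLC35A5, which was lower while ATG3 rose (log2 fold change -0.37, edgeR adjusted p = 8.89e-10). The part of these neighbours in the ATG12 and ATG3 values was not tested. ATG5 and ATG7, the activating enzyme, did not pass.

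Among the ATG8 proteins, GABARAPL1 fell while MAP1LC3B and GABARAPL2 were slightly higher. GABARAPL1 had 47.0, 45.8 and 49.4 CPM in siATF6 libraries, against 58.6, 57.4 and 60.9 CPM in siCtrl libraries. The 3 siATF6 libraries lay well below (log2 fold change -0.31, SE 0.0411, edgeR adjusted p = 1.95e-07). MAP1LC3B, which codes for LC3B, had 448, 435 and 436 CPM in siATF6 libraries, against 425, 417 and 424 CPM in siCtrl libraries (log2 fold change 0.06, SE 0.0216, edgeR adjusted p = 0.0350). GABARAPL2 had 45.3, 46.9 and 46.5 CPM in siATF6 libraries, against 40.8, 43.4 and 43.2 CPM in siCtrl libraries (log2 fold change 0.12, SE 0.0476, edgeR adjusted p = 0.0495). Both sit just above siCtrl without overlap, and the calls were lost under 11 and 12 of 20 alternative settings. GABARAP was counted under 1 CPM in every library; its exons share 30.5% of their bases with an unnamed gene on the same strand, so its true level is uncertain. MAP1LC3B has a near-identical copy, MAP1LC3B2, between which reads could be split.

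The cargo receptor NBR1 and the ER-phagy receptor RETREG1 fell. NBR1 links ubiquitin-marked cargo to ATG8 proteins. It had 121, 123 and 123 CPM in siATF6 libraries, against 137, 140 and 141 CPM in siCtrl libraries. All siATF6 libraries were lower (log2 fold change -0.18, SE 0.0267, edgeR adjusted p = 1.48e-06). Exons of NBR1 share 5.5% of their bases with the opposite-strand gene AC060780.1. That gene was itself lower in siATF6 (log2 fold change -0.18, edgeR adjusted p = 0.0152), and its part in the NBR1 value was not tested. SQSTM1, which codes for the receptor p62, had 783.1, 816 and 814 CPM in siATF6 libraries, against 782.9, 794 and 770.0 CPM in siCtrl libraries. The groups overlap, and SQSTM1 did not pass (log2 fold change 0.04, SE 0.0217, edgeR adjusted p = 0.175). RETREG1, also called FAM134B, is an ER membrane protein that tethers ER sheets to ATG8 proteins (GRCh38 chr5:16473038-16617058, minus strand). It had 5.76, 6.06 and 5.46 CPM in siATF6 libraries, against 9.03, 9.23 and 8.91 CPM in siCtrl libraries. The groups lay far apart for so low a level, and at 1.57-fold lower it was the largest change of the 41 (log2 fold change -0.65, SE 0.0986, edgeR adjusted p = 2.52e-06). TEX264, another ER-phagy receptor, averaged 29.6 ± 0.29 CPM in siATF6 and 29.4 ± 1.09 CPM in siCtrl libraries (SD, n = 3 each). SEC24B-AS1 stayed under 1.5 CPM in every library and did not pass in either comparison.

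**Figure D3:**
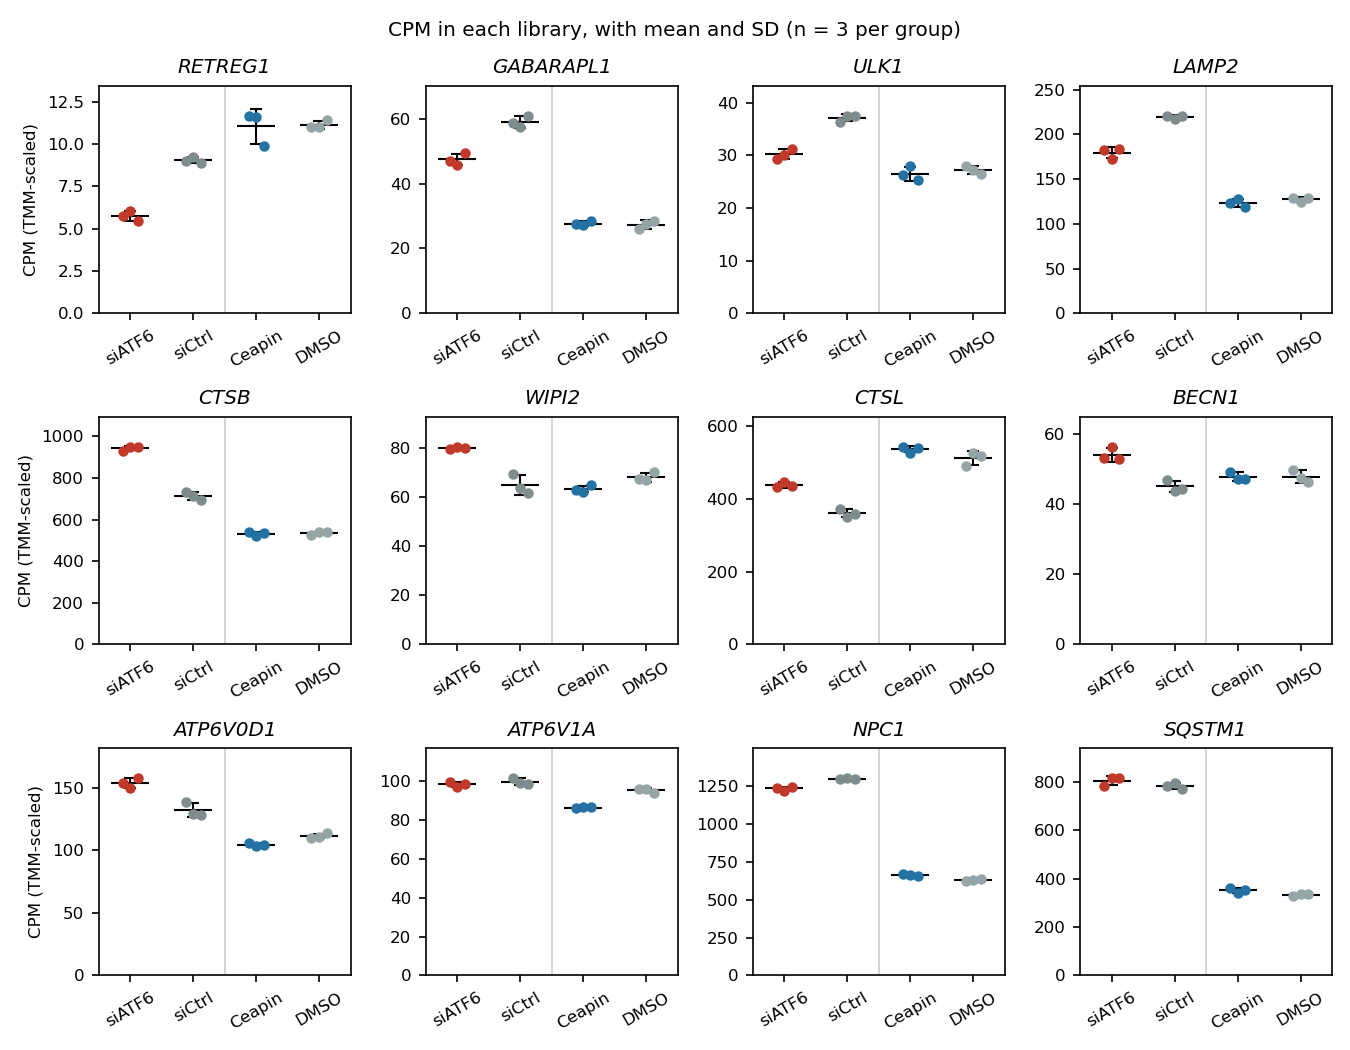
CPM of 12 of the genes in each of the 12 libraries (points) with the group mean and SD (bars), in the order siATF6, siCtrl, Ceapin, DMSO. RETREG1, GABARAPL1, ULK1 and LAMP2 lie lower in siATF6 than in siCtrl, CTSB, WIPI2, CTSL, BECN1 and ATP6V0D1 lie higher. Between Ceapin and DMSO, NPC1 and SQSTM1 lie higher and ATP6V1A lower in Ceapin.

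Ceapin-A7 was accompanied by changes in 3 of the 41 genes, against 4.62% of all genes tested. NPC1 and SQSTM1 were higher and ATP6V1A was lower, all by at most 1.10-fold (edgeR, adjusted p under 0.05), against 2.21% of all genes higher and 2.41% lower. With DESeq2 size factors in place of TMM the split was 1 higher and 2 lower. The median size of the log2 difference was 0.04 over the members and 0.08 over all genes tested. At an unadjusted p under 0.05, 9 of the 41 passed. The 38 genes that did not pass the adjusted threshold had log2 fold changes between -0.18 (WIPI1) and 0.32 (GABARAP, under 1 CPM).

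ATP6V1A (GRCh38 chr3:113747019-113812056, plus strand) had 86.1, 86.5 and 86.4 CPM in Ceapin libraries, against 96.1, 95.9 and 94.0 CPM in DMSO libraries. The 3 Ceapin libraries agree closely and lie below all DMSO libraries, a 1.10-fold lower level (log2 fold change -0.14, SE 0.0300, edgeR adjusted p = 2.35e-03). NPC1 had 666, 664 and 653 CPM in Ceapin libraries, against 625, 631 and 635 CPM in DMSO libraries (log2 fold change 0.07, SE 0.0193, edgeR adjusted p = 0.0292). SQSTM1 had 361, 342 and 351 CPM in Ceapin libraries, against 326, 334 and 336 CPM in DMSO libraries (log2 fold change 0.08, SE 0.0242, edgeR adjusted p = 0.0449). Neither gene overlapped between groups, but both calls depended on single libraries. Leaving out Ceapin replicate 1 or any of the 3 DMSO replicates brought the count of called members to 1. Exons of SQSTM1 share 20.7% of their bases with MRNIP on the opposite strand.

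NPC1 was the only member called in both comparisons, lower in siATF6 against siCtrl and higher in Ceapin against DMSO. No member was called in the same direction in both, 12 were higher and 9 lower in siATF6 with no call in Ceapin, and 17 were called in neither. The difference between the siATF6 and Ceapin effects was itself tested, and 19 of the 41 passed (11 with the larger value in the siATF6 comparison, 8 with the smaller), against 23.4% of all genes tested (12.3% and 11.1%). CTSB had a Ceapin effect of -0.01 (SE 0.0221), so its effects differed by 0.41 on the log2 scale (SE 0.0305, edgeR adjusted p = 1.51e-12). WIPI2 was at 0.30 with the siRNA and -0.11 with Ceapin-A7, a difference of 0.41 (SE 0.0542, edgeR adjusted p = 4.54e-07). RETREG1 was at -0.01 with Ceapin-A7 (SE 0.0855), and its effects differed by -0.64 (SE 0.131, edgeR adjusted p = 2.98e-04). WIPI1 was at -0.22 with the siRNA, which passed, and at -0.18 with Ceapin-A7, which did not, and the difference did not pass either (-0.05, SE 0.111, edgeR adjusted p = 0.826). The siRNA and compound differ in time and, by the titles and treatment text, in transfection as well as in agent, which cannot be told apart.

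Levels of the list also differed between the control groups. Comparing siCtrl with DMSO as levels without a test, 12 of the 41 genes were at least 1.5-fold higher with groups apart, against 11.9% of all genes tested, and 1 was at least 1.5-fold lower, against 11.8%. The median log2 ratio was 0.32 over the members and -0.01 over all genes tested. MAP1LC3B averaged 422 ± 4.45 CPM in siCtrl and 143 ± 3.85 CPM in DMSO libraries (SD, n = 3 each), 2.95-fold higher. SQSTM1 averaged 782 CPM in siCtrl and 332 CPM in DMSO libraries, and PSAP 2071 CPM in siCtrl and 920.2 CPM in DMSO libraries. GABARAPL1 averaged 59.0 CPM in siCtrl and 27.4 CPM in DMSO libraries, and NPC1 1298 CPM in siCtrl and 630.0 CPM in DMSO libraries. These 5 genes were all more than 2-fold higher in siCtrl, and CTSA, HEXA, LAMP2, GLB1, ATP6V1B2, ATG12 and GLA were 1.51-fold to 1.74-fold higher. TFEB was 1.67-fold lower, at 1.81 CPM in siCtrl and 3.01 CPM in DMSO libraries. CTSL was 1.42-fold lower in siCtrl. Summed over the 41 genes, levels were 8754 to 8908 CPM in siCtrl and 5391 to 5511 CPM in DMSO libraries. The sum of the 5 epithelial markers also differed between these groups, at 504 to 525 CPM in siCtrl and 1367 to 1421 CPM in DMSO libraries. The markers differed unequally. KRT8 averaged 174 CPM in siCtrl and 647 CPM in DMSO libraries, and KRT19 144 CPM in siCtrl and 151 CPM in DMSO libraries. The mitochondrial share of counts was 6.65% to 7.13% in siCtrl and 9.71% to 10.3% in DMSO libraries. The part of these in the gene levels was not tested, and transfection, where the labels conflict for the DMSO libraries, and time in culture cannot be told apart.

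**Figure D4:**
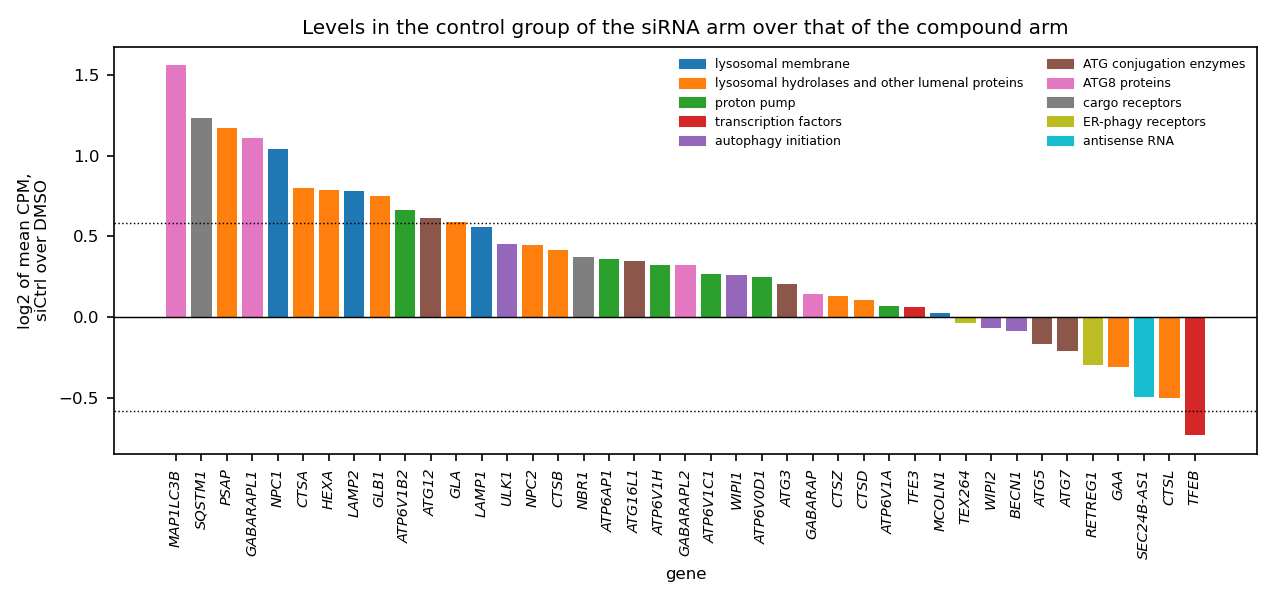
Log2 ratio of the mean CPM in siCtrl over DMSO for each of the 41 genes (bars from 0), with dotted lines at 1.5-fold in both directions. Bars of 12 genes with groups apart pass the upper line, led by MAP1LC3B at 1.56, and TFEB passes the lower line at -0.74.

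Per kilobase of exon, PSAP was the most abundant member in the siRNA groups, at 628 CPM per kb in siATF6 and 639 in siCtrl libraries. CTSL followed at 185 CPM per kb in siATF6 and 152 in siCtrl libraries. In the compound groups the 2 genes were closer, PSAP having 281 CPM per kb in Ceapin and 284 in DMSO libraries and CTSL 227 in Ceapin and 216 in DMSO libraries. GABARAP, SEC24B-AS1 and TFEB were the least abundant on this scale, all under 1 CPM per kb in every group.

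The wider pathway was read from a further list of 147 genes, of which 142 were tested. In siATF6 against siCtrl, 33 of the 142 were higher and 42 lower, against 16.1% and 15.3% of all genes tested. In Ceapin against DMSO 1 was higher and 10 lower, against 2.21% and 2.41% of all genes. The median siATF6 log2 fold change of the 142 was -0.02. The difference of the effects was called in 54, against 23.4% of all genes, with 24 positive and 30 negative, or 17 positive and 33 negative when libraries were scaled by their totals only. Of the other ER-phagy receptors, RTN3, ATL3, SEC62 and CCPG1 fell and CALCOCO1 did not pass at -0.13 (edgeR adjusted p = 0.0578). The CCPG1 call was lost without siATF6 replicate 2 or siCtrl replicate 1. RTN3, which acts on ER tubules, averaged 190 ± 3.00 CPM in siATF6 and 308 ± 5.98 CPM in siCtrl libraries (SD, n = 3 each), a log2 fold change of -0.70. ATL3 averaged 129 ± 7.51 CPM in siATF6 and 244 ± 3.41 CPM in siCtrl libraries (SD, n = 3 each), at -0.92. With RETREG1, 5 of the 7 ER-phagy receptors measured were lower, against 15.3% of all genes tested, and none was higher. SEC62 was at only -0.14 and CCPG1 at only -0.18. The lists were chosen with earlier results of these data known, so this count is a description and no test of the receptors as a set.

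In siATF6 against siCtrl, 16.1% of all genes tested were higher and 15.3% lower, beside which the following counts by role stand. Among the 36 other hydrolases, 5 were higher and 12 lower. For each role the genes named are those with the smallest p, not the largest change. The higher ones included PPT1, a thioesterase, at 0.45 and SGSH at 0.21, and the lower ones the protease LGMN at -0.71 and the ceramidase ASAH1 at -0.35. Of 17 other membrane proteins 5 rose, including the channel TPCN1 at 0.29 and the cystine exporter CTNS at 0.21. Another 4 fell, including OSTM1 at -0.96 and the amino acid sensor SLC38A9 at -0.50. Of 13 other pump subunits, 7 were lower and 2 higher, with ATP6V1F and ATP6V0A1 both at -0.23, ATP6V0E1 at 0.22 and ATP6V1G1 at 0.19. Of 6 sorting genes 3 rose, including the mannose 6-phosphate receptors M6PR at 0.28 and IGF2R at 0.12, and SORT1 fell by 0.29. MITF, a relative of TFEB, fell by 0.27. In the group of mTORC1 and its lysosomal anchor 6 of 19 rose, including FLCN at 0.28 and MTOR at 0.14, and none fell.

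Of 17 other initiation genes 6 rose and 5 fell, with UVRAG at 0.21, WDR45B at 0.10, ATG14 at -0.58 and RB1CC1 at -0.26. Among 9 other cargo receptors 6 fell, including the ferritin receptor NCOA4 at -0.48 and the mitochondrial receptor BNIP3L at -0.26, and TAX1BP1 rose by 0.10. Of 12 fusion genes 5 rose, including VPS41 at 0.23 and the GTPase RAB7A at 0.10, and 2 fell, SNAP29 at -0.27 and PLEKHM1 at -1.19. PLEKHM1 was counted at 0.72 ± 0.26 CPM in siATF6 and 1.66 ± 1.36 CPM in siCtrl libraries (SD, n = 3 each), and it lost its call without siATF6 replicate 2 or siCtrl replicate 1. None of the 5 other conjugation genes and 2 other ATG8 genes passed. Over all genes tested, 16.1% were higher and 15.3% lower.

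The 11 genes called after Ceapin-A7 were GM2A (-0.21), LIPA (-0.11), ATP6V1C2 (-0.73), ATP6V0E1 (-0.14), LAMTOR1 (-0.12), LAMTOR2 (-0.17), TSC1 (-0.12), PIK3R4 (-0.15), RTN3 (-0.09) and VPS18 (-0.14), all lower, and VMP1 (0.09), higher. GM2A, an activator of ganglioside breakdown, averaged 53.6 ± 0.81 CPM in Ceapin and 61.8 ± 2.81 CPM in DMSO libraries (SD, n = 3 each). ATP6V1C2 was rare, at 1.76 ± 0.44 CPM in Ceapin and 2.92 ± 0.36 CPM in DMSO libraries (SD, n = 3 each). Leaving out Ceapin replicate 2 or Ceapin replicate 3 brought the 11 to 4, and leaving out DMSO replicate 2 brought them to 5, DMSO replicate 3 to 6 and Ceapin replicate 1 to 7.

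An siRNA can also lower transcripts other than its target when its seed pairs with a short stretch of their 3′ untranslated regions. No source used here gives the sequence of the ATF6 siRNA. The word GAGTCAT was known from earlier work on these data to be frequent in the 3′ untranslated regions of genes lower in siATF6. Of the 17823 genes tested, 13449 had an annotated 3′ untranslated region of at least 50 bases. Shares and medians for all genes in this paragraph are over those. The word was present in 20.7% of the genes called lower, 4.01% of those called higher and 6.32% of those not called. Among the 39 members with an annotated 3′ untranslated region it occurred in 1, HEXA, which was not called, and in none of the 22 called members. One of its 6-base parts, GAGTCA or AGTCAT, occurred in 3 of the 10 lower members (LAMP2, ATG12 and NBR1) and in 5 of the 12 higher ones. Over the 13449 genes, such a part occurred in 66.8% of those called lower, 35.5% of those called higher and 39.6% of those not called. The genes called lower also had longer 3′ untranslated regions, with a median of 2207 bases, against 1179 for those called higher and 1210 for those not called. RETREG1, GABARAPL1, ULK1, GLB1, NPC1, WIPI1 and ATP6AP1 held neither. Among the other pathway genes the full word was in 7 of the 42 lower, namely OSTM1, PLBD2, ATP6V0A1, ATG14, NCOA4, ATL3 and SNAP29, and in none of the 33 higher. ATL3 held 3 copies and OSTM1 held 2. A 6-base part was in 25 of the 42 lower, 10 of the 33 higher and 29 of the 67 not called. The median length of the region was 1838 bases in the lower, 1188 in the higher and 959 in those not called. The lower ER-phagy receptors ATL3, RTN3, SEC62 and CCPG1 all held a 6-base part, and CALCOCO1, not called, held neither. The part of such pairing in the lower levels of these genes was not tested.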

How the data were processed

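RNA-seq was measured in 12 libraries, with 3 in each of the groups siATF6, siCtrl, Ceapin and DMSO, taken from the sample titles. The columns with the prefix NC were matched to siCtrl by number, as the only control siRNA samples. The authors deposited expected counts per gene, already whole numbers and not scaled for depth. They were made with Salmon on hg38 per the submitters' processing notes, from a stranded TruSeq kit per the labels' protocols. The Salmon version, strand setting and annotation are not given in the sources used here. Every gene in the table has at least 1 count in every library, so genes at 0 in a library were not analysed here. No molecular identifiers are mentioned, and errors here come from the differences among replicates.

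The edgeR package (4.0.16, in R 4.3.3) was fitted to all 12 libraries with 1 term per group, TMM scaling, the filter filterByExpr (3616 genes removed) and a quasi-likelihood fit with 8 residual degrees of freedom. All tests were two-sided, and p-values were adjusted by the Benjamini-Hochberg method over all genes. The standard error is the size of the log2 fold change divided by the root of F. CPM values are TMM-scaled, except those of the epithelial and endothelial markers, which are scaled by library totals only. Alternatives used DESeq2 1.42.0, limma 3.58.1 with voom, other scalings and filters, a replicate block and each library left out. The test was tried on simulated data. Every-library values are given for up to 4 called members per role by the smallest p, except NPC2, and for TFEB, which was not called. Genes named from the further list are given by fold change or group mean. In most roles these are up to 2 called genes per direction by the smallest p. Positions, exon lengths and 3′ untranslated regions came from GENCODE v29 (GRCh38) and promoters from RefSeq. Symbols were found for 21201 genes. The members, lists and the 7-base word were chosen with earlier results of these data known.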

Additional observations from a re-analysis of the deposited data

Results flagged for a closer look

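The siATF6 and Ceapin effects differed in 19 of the 41 genes by the edgeR test of the difference itself (siATF6 minus siCtrl, less Ceapin minus DMSO; adjusted p under 0.05), against 23.4% of all genes tested. The log2 difference was positive for 11 of them. Among lysosomal genes it was 0.41 for CTSB, 0.21 for CTSL, 0.17 for LAMP1 and 0.13 for NPC2. NPC2 was called in neither comparison alone, at 0.05 with the siRNA and -0.08 with Ceapin-A7. In the proton pump it was 0.31 for ATP6V0D1, 0.20 for ATP6V1B2, 0.13 for ATP6V1C1 and 0.12 for ATP6V1A. The ATP6V1A difference lost its call under 10 of its 19 alternatives, among them library totals, DESeq2 and the loss of single libraries from every group. In autophagy it was 0.41 for WIPI2, 0.27 for BECN1 and 0.21 for ATG3. It was negative for 8 genes. The lysosomal ones were LAMP2 at -0.24, GLB1 at -0.20 and NPC1 at -0.14, and the autophagy ones RETREG1 at -0.64, GABARAPL1 at -0.33, ULK1 at -0.26, ATG12 at -0.20 and NBR1 at -0.17. The agents were given for different times and by different routes, which cannot be told apart from the agent.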

How the results depend on the processing

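Of the 22 siATF6 calls among the members, 17 kept their direction and call under every alternative run; ATP6AP1, ATP6V1C1, WIPI1, MAP1LC3B and GABARAPL2 lost it in 33 of 440 values. ATP6V1A kept its Ceapin call throughout, NPC1 and SQSTM1 did not (15 of 60 values), and of the 19 called differences ATP6V1A lost its call in 10 of 361 values. No value changed direction. Leaving out each library in turn gave 20 to 23 called members for siATF6, 1 to 4 for Ceapin and 18 to 20 for the difference, and 64 to 75, 4 to 13 and 45 to 53 called other pathway genes. The member count for Ceapin was 3, and it was 1 with no filter on low counts and 1 at an adjusted p under 0.01. At that stricter threshold the 11 other pathway genes became 1 and, over the whole transcriptome, 823 called genes became 472 genes. The replicate block gave 23 siATF6, 3 Ceapin and 19 difference calls among the members, adding CTSZ for siATF6; samples with the same number correlated by 0.11, 0.05 and 0.02 in the siRNA groups and by -0.04, -0.06 and 0.01 in the compound groups, so the numbers were not read as pairs. Scaling moved the median of all genes by at most 0.02 on the log2 scale. Depth limits TFEB, GABARAP and SEC24B-AS1 most, with under 4 CPM in every library.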
